A study of Mus musculus with 4 samples.

Results

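This comparison set the Tet1/Tet2 knockdown against a scramble control in mouse embryonic stem cells labelled with PRDM14 in both arms. Its members were all probe sets with 1 annotated gene, 28898 of the 45141 on the array, and they stood for 17097 genes. A value below is a log2 probe set signal, and a difference is the knockdown array minus the scramble array, both with PRDM14. A gene was counted when the brighter of its arrays reached the expression filter of 5.40, the median of all named probe set values, which 10322 genes did.

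The cells were J1 embryonic stem cells of the iP14 line, which expresses PRDM14 on addition of doxycycline, grown without feeder cells in serum with LIF. The 4 arrays held scramble, scramble + PRDM14, Tet1/Tet2 KD and Tet1/Tet2 KD + PRDM14, the knockdowns made with short hairpin RNAs, and each condition had 1 array. There were thus no replicates, the spread within a condition is unknown, and the 2-fold rule used below is a rule of size and not a test. The labels do not say how many clones or cultures lay behind an array or how long induction lasted, and the scramble and knockdown cells may differ in more than the hairpins. In RNA from whole cultures, fewer cells of a kind and less RNA per cell cannot be told apart. The series was designed to ask what TET1 and TET2 contribute to the changes in transcription that PRDM14 brings about.

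TET enzymes oxidise 5-methylcytosine in DNA, which opens a path back to unmethylated cytosine by base excision repair or by dilution through replication. PRDM14 is a DNA-binding protein of pluripotent and germ cells that is known in embryonic stem cells for repressing de novo DNA methyltransferases and FGF signalling. Promoters of many germline genes are methylated in somatic and primed cells, and several of these genes are read at low levels in embryonic stem cells in serum.

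Promoter sequences are shown for 5 called genes, 3 with germline roles and a pair of claudins, because these gene groups are among those described below. They are RefSeq's, on build GRCm38.p6, from 250 bases before to 50 bases after the annotated start, 5′ to 3′ on the strand of the gene. In the germline promoters capitals mark TTCCCGC on either strand, the core of an E2F6-type site, and the E-box CACGTG, which reads the same on both strands. Ddx4 lies at chr13:112652261-112652560 on the minus strand, Sycp3 at chr10:88459337-88459636 on the plus strand and Meioc at chr11:102665335-102665634 on the plus strand.
Ddx4: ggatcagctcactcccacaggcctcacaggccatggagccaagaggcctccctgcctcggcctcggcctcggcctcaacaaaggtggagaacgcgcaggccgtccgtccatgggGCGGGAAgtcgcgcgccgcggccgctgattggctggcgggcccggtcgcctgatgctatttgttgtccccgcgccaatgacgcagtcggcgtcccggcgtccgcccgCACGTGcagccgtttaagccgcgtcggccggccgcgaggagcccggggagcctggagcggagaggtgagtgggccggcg
Sycp3: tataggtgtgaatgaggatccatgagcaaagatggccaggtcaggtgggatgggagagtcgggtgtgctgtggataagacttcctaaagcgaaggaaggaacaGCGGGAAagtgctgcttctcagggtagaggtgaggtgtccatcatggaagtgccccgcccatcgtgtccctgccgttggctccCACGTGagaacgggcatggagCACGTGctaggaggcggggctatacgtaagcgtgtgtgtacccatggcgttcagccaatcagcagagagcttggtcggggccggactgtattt
Meioc: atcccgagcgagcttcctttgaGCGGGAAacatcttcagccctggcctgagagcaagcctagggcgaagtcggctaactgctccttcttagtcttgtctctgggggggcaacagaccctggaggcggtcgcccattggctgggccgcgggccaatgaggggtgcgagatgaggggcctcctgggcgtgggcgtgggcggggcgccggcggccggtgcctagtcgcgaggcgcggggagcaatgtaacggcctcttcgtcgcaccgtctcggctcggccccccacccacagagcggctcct
In the claudin promoters capitals mark each CpG, the site of DNA methylation. Cldn7 lies at chr11:69965171-69965470 on the plus strand, and of its 2 annotated starts the one richer in CpG is shown. Cldn4 lies at chr5:134946885-134947184 on the minus strand.
Cldn7: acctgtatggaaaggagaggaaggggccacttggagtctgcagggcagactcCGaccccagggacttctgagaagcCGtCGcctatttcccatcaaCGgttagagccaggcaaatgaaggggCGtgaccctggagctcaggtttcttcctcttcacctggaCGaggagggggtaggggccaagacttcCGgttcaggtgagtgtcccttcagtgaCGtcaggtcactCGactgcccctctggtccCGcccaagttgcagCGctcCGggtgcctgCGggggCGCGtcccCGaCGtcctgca
Cldn4: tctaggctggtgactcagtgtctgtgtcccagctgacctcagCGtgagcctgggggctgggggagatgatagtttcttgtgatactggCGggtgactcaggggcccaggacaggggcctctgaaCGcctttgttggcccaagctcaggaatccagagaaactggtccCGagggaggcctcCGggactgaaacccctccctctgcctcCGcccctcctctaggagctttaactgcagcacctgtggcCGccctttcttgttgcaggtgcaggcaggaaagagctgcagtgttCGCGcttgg

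The arrays had medians between 5.09 and 5.11 over all probe sets. Measured from the mean of the other arrays, scramble lay farthest away, with a root mean square distance of 0.222, followed by scramble + PRDM14 at 0.200, and the knockdown arrays lay at 0.161 and 0.164. All 8 embryonic stem cell markers were above the filter on an array with PRDM14, from 8.64 to 12.71, and 0 of them differed by 2-fold. Of 10 fibroblast and feeder markers 2 reached the filter, Prrx1 and Dcn, and their list ranged from 3.45 to 6.46 on these arrays, with log2 signals summing to 45.53 for scramble + PRDM14 and 45.19 for knockdown + PRDM14. Trophectoderm markers reached it in 2 of 6 cases and primitive endoderm markers in 3 of 6. Of 4 neural markers on the array 2 reached it, Pax6 and Tubb3. Pax6 was at least 2-fold lower, at -1.43, and its other probe sets are given below.

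Tet2, the targeted gene that was measured, was lower on both knockdown arrays. Its signal was 8.46 on scramble, 9.33 on scramble + PRDM14, 7.50 on knockdown and 8.15 on knockdown + PRDM14. The difference with PRDM14 was -1.18, and a dimmer probe set of Tet2 gave -0.58, so that their average of -0.88 falls short of 2-fold. The knockdown array with PRDM14 thus held less Tet2 than its own control but lay close to the scramble array without PRDM14. Tet3, the remaining family member, differed by -0.12. Tet1 was not analysed here. Prdm14 read 4.53, 4.83, 4.35 and 4.61 on the 4 arrays in that order, below the filter on each, so this probe set does not check the PRDM14 labels. Dnmt3b, which PRDM14 is known to repress in these cells, was brighter on both arrays labelled with PRDM14, at 10.21 and 10.61, than on the arrays without, at 8.89 and 8.83. Dnmt3l was brighter on them too, at 10.72 and 9.93 against 9.76 and 9.21. Dnmt3a was not, at 7.56 and 7.79 against 7.91 and 7.62. The arrays are called by their labels throughout, and whether PRDM14 was induced was not tested.

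Between the arrays labelled with PRDM14, 65 genes were at least 2-fold higher on the knockdown array and 49 at least 2-fold lower. The background shares were 0.630% higher and 0.475% lower of the genes above the filter, 1.10% in either direction. The median difference over these genes was 0.00 with an SD of 0.27, and the percentiles 1 and 99 lay at -0.76 and 0.84. The called genes had a median fold of 2.29 in the higher direction and 2.39 in the lower. At least 3-fold were 8 higher and 4 lower genes, and at least 4-fold 3 and 0. The threshold cuts through a continuum: Gstm5, Fam3c, Acot1 and Dmrt1 lay just inside, at 1.0002 to 1.0031, and Ccnd2, Fgf15, Pm20d2 and Mindy1 just outside, at -0.9998, -0.9918, 0.9915 and -0.9876. More than 1 probe set reached the filter for 31 called genes, of which 29 had all of these in 1 direction and 11 had all of them past 2-fold. The pooled SD between probe sets of a gene was 0.16, which covers neither cultures nor arrays.

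**Figure D1:**
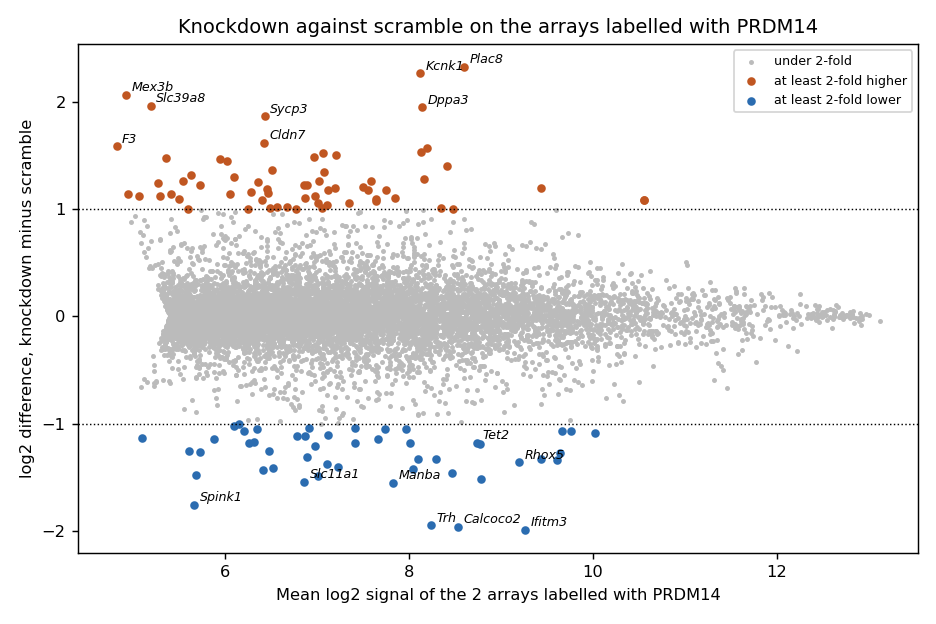
The log2 difference, knockdown minus scramble with PRDM14, is plotted against the mean log2 signal of the 2 arrays for the 10322 genes above the filter. Orange points are the 65 genes at least 2-fold higher and blue points the 49 at least 2-fold lower, and dotted lines mark 2-fold; the called genes are spread over most of the signal range up to about 10.

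The highest differences belonged to genes of varied function. Plac8, a small cysteine-rich protein of placenta and epithelia, read 7.44 on scramble + PRDM14 and 9.76 on knockdown + PRDM14, a difference of 2.32, with 9.07 on scramble and 9.29 on knockdown. Its scramble + PRDM14 array thus stood alone below the other 3. Kcnk1, a two-pore potassium channel, read 7.70 on scramble, 6.98 on scramble + PRDM14, 7.80 on knockdown and 9.25 on knockdown + PRDM14, a difference of 2.27, and its other probe set gave 1.68. Here the knockdown + PRDM14 array stood above the rest. Mex3b, an RNA-binding protein, read 3.65, 3.89, 5.52 and 5.95 in the same order, so that both knockdown arrays were higher and both scramble arrays below the filter. Slc39a8, a zinc and manganese importer, differed by 1.96, from 4.20 to 6.17, but a second probe set below the filter differed by -0.06.

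Dppa3, the Stella protein of oocytes and germ cells, which shields DNA from changes in methylation, read 9.68 on scramble, 7.17 on scramble + PRDM14, 10.53 on knockdown and 9.12 on knockdown + PRDM14. It was lower with PRDM14 in both arms, and its knockdown difference was 1.95. F3, the tissue factor that starts coagulation, differed by 1.59, from 4.02 below the filter to 5.61, and Mageb16, an X-linked gene of the melanoma antigen family, by 1.57. Galnt7, an enzyme of mucin-type glycosylation, differed by 1.53. Sycp3 and Cldn7 are described with their groups below, and Setd7, Slc23a1, Scamp1, Zfp52 and Mei4 completed the 15 highest, at 1.46 to 1.52. Averaging all probe sets of a gene in place of taking the brightest left Setd7 at 0.76, Slc23a1 at 0.82, Scamp1 at 0.68, Zfp52 at 0.67 and Slc39a8 at 0.95, and the count of higher genes at 39. Raising values below the filter to it left Slc39a8 at 0.77, Zfp52 at 0.69, Mex3b at 0.56 and F3 at 0.21, all under 2-fold.

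The lowest differences included secreted, membrane and metabolic genes. Ifitm3, an interferon-induced membrane protein that is also a marker of primordial germ cells, read 7.81 on scramble, 10.26 on scramble + PRDM14, 8.95 on knockdown and 8.27 on knockdown + PRDM14, a difference of -1.99. Calcoco2, a receptor for autophagy of bacteria, read 7.88, 9.51, 9.11 and 7.55, a difference of -1.96. In both genes scramble + PRDM14 was the brightest array. Trh, the precursor of thyrotropin-releasing hormone, read 6.93, 9.21, 5.78 and 7.26, a difference of -1.95, and was lower on the knockdown array in each arm. Spink1, a trypsin inhibitor, read 4.28, 6.54, 4.60 and 4.79, above the filter on scramble + PRDM14 alone. Manba, the lysosomal beta-mannosidase, differed by -1.55, and Nid1, a basement membrane linker, by -1.46, with -0.37 at a second probe set. Pax6, a transcription factor of eye and neural progenitors, differed by -1.43, and its other probe sets, all below the filter, gave from -0.47 to 0.01. Averaged over probe sets, Nid1 was at -0.91 and Pax6 at -0.42, under 2-fold. The remaining members of the 15 were Slc11a1, Aard, Aldh6a1, Epop, P3h4, Accsl, Phf11a and Ak7, from -1.54 to -1.38.

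**Figure D2:**
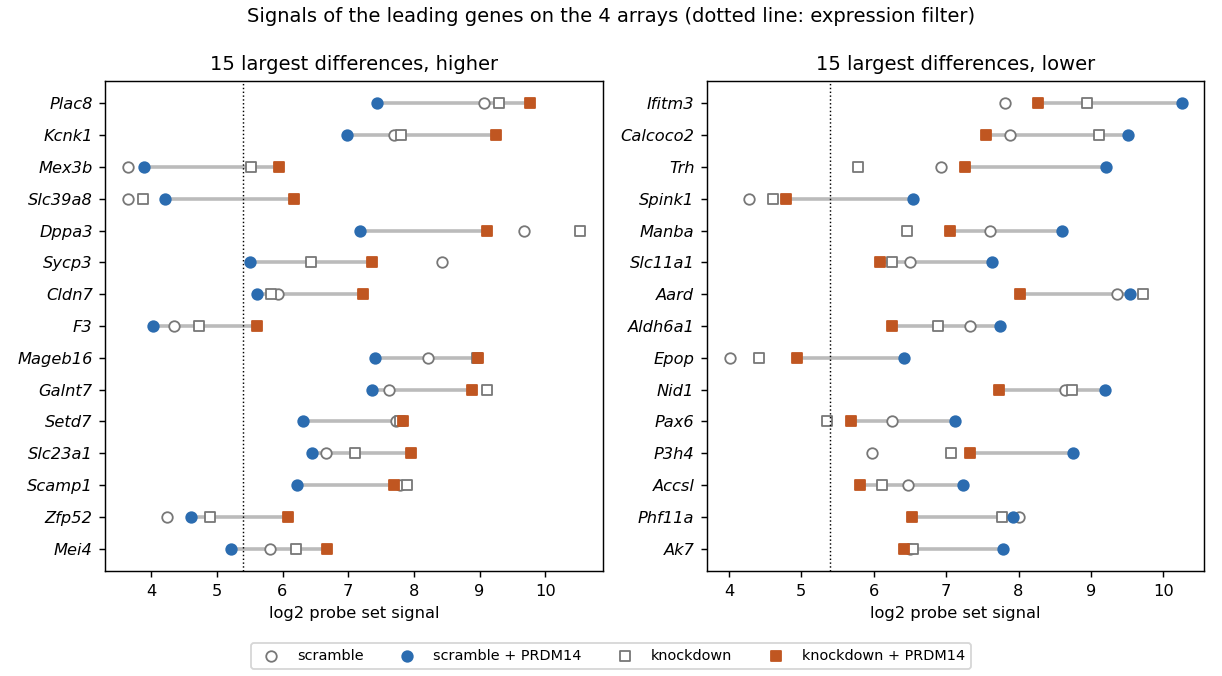
Log2 signals of the 15 highest and 15 lowest called genes on the 4 arrays, with circles for scramble, squares for knockdown, and filled symbols for PRDM14. A grey bar joins the 2 arrays compared, and the dotted line is the filter; for Plac8, Setd7 and Scamp1 the scramble + PRDM14 array lies apart from the other 3, and for Kcnk1, Slc39a8 and Cldn7 the knockdown + PRDM14 array does.

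Of the 65 higher genes, 55 had their lowest signal of the 4 arrays on scramble + PRDM14 and 41 their highest on knockdown + PRDM14, and 31 had both. Of the 49 lower genes, 41 were brightest on scramble + PRDM14, 27 dimmest on knockdown + PRDM14, and 21 both. The rule compares these same arrays, so outermost positions are frequent by construction. Scramble + PRDM14 alone was the outermost array of the compared pair in 24 higher and 20 lower genes, and knockdown + PRDM14 alone in 10 and 6. Over all genes, 27 were at least 2-fold outside the other 3 arrays on scramble + PRDM14 and 12 on knockdown + PRDM14. The arrays without PRDM14 had 49 such genes on scramble and 7 on knockdown. The part of the single arrays in these calls was not tested.

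Genes listed for tight junctions and epithelial adhesion were mostly higher on the knockdown array. They are called junction genes here, though the list also holds other epithelial genes, such as Krt18, Esrp1 and Ripk4. Of 21 on the array, 19 were above the filter, of which 16 had a difference above 0 and 3 below, with a median of 0.48 against 0.00 over all genes. At least 2-fold higher were 5 of the 19, and 0 were lower, against the background shares of 0.630% and 0.475% given above. Of these 5, only Cldn7 and Cldn4 are junction proteins. The list was chosen with earlier results of these data known, so the contrast with the background is a description and not a test. Cldn7, a claudin that seals tight junctions, read 5.93 on scramble, 5.61 on scramble + PRDM14, 5.83 on knockdown and 7.23 on knockdown + PRDM14, a difference of 1.62. Krt18, a keratin of simple epithelia, read 6.46, 6.40, 6.59 and 7.74, a difference of 1.35. In both, 3 arrays lay close together and knockdown + PRDM14 stood above them. Cldn4, another claudin, read 6.34, 6.81, 6.27 and 7.87, a difference of 1.06. Esrp1, an epithelial splicing regulator, read 7.79, 7.10, 7.60 and 8.17, a difference of 1.08. Ripk4, a kinase of epidermal differentiation, differed by 1.09, with 0.27 at its second probe set and 0.68 on average.

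Below 2-fold stood Ocln, the tight junction protein occludin, at 0.95, Epcam, an adhesion protein of epithelia and embryonic stem cells, at 0.88 with 0.39 at a second probe set, Cgn, the junction plaque protein cingulin, at 0.72, and Cldn6 at 0.60. Cdh1, E-cadherin, read 10.99 on scramble + PRDM14 and 11.15 on knockdown + PRDM14, and the lowest of the list was Jup, plakoglobin, at -0.38. The knockdown + PRDM14 array was the brightest of the 4 for 15 of these 19 genes, against 2306 of all 10322. Without PRDM14 the same list had a median knockdown difference of -0.07, with 7 genes above 0 and 12 below, and 1 of 19 was 2-fold higher. The 2 comparisons share no array, and the difference between them was not tested. Of 20 genes of trophectoderm, an embryonic epithelium, 14 were above the filter, 8 of them above 0 and 6 below, with a median of 0.04 that turned to -0.00 with averaged probe sets. The 2 called higher, Krt18 and Cldn4, stand on both lists, and 0 were called lower, against background shares of 0.630% higher and 0.475% lower. Tfap2c differed by 0.66 and Eomes by 0.23, Plet1 was the lowest at -0.66, and Cdx2, Elf5, Gata3, Krt7, Ascl2 and Esx1 were below the filter. The part of such cells in the junction genes was not tested.

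Naive pluripotency genes were mostly lower on the knockdown array. Of 18 on the array 15 were above the filter, 14 with a difference below 0 and 1 above, with a median of -0.44. With averaged probe sets the median was -0.28. At least 2-fold lower were 2, and 0 were higher, against background shares of 0.475% lower and 0.630% higher. Klf4, a LIF-responsive pluripotency factor, read 7.13 on scramble, 7.58 on scramble + PRDM14, 6.98 on knockdown and 6.36 on knockdown + PRDM14, a difference of -1.21, and its other probe set gave -2.24. Tbx3, which acts beside it downstream of LIF, read 7.25, 7.93, 7.04 and 6.89, a difference of -1.04, and its other probe set above the filter gave -1.54, while the average with its probe set below the filter was -0.88. For both genes scramble + PRDM14 was the brightest array and knockdown + PRDM14 the dimmest.

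Tcl1, an AKT coactivator of embryonic stem cells, differed by -0.83, Nr0b1 by -0.53 and the nuclear receptor Esrrb by -0.52. Zfp42, also called Rex1, and Dppa5a, both very bright here, differed by -0.28 and 0.01. The knockdown + PRDM14 array was the dimmest of the 4 for 9 of these 15 genes, against 2195 of all 10322, and scramble + PRDM14 the brightest for 9. Without PRDM14 the median of the list was -0.16, with 10 of 14 genes below 0. General pluripotency genes had a median of -0.12 with 0 of 11 called, led by Nanog at -0.64. Primed epiblast genes went both ways, with a median of -0.12 over 12. At least 2-fold higher were 2 and lower 1, against background shares of 0.630% and 0.475%. Krt18 and Pou3f1 were higher, the latter at 1.23 with 0.24 at a second probe set and 0.73 on average. Lefty2 was lower at -1.18. Fgf5, the customary marker of the primed state, read 4.84 on scramble + PRDM14, below the filter, and 5.54 on knockdown + PRDM14. It differed by 0.70 and passed the filter through its brighter array alone.

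Germline genes divided into a few that were higher and a majority below the filter. Of 28 members with germline promoters known to be methylated, 11 were above the filter, 4 of them at least 2-fold higher and 0 lower. The background shares were 0.630% higher and 0.475% lower. The filter admits a gene by its brighter array, so a member low on the other array can enter through its high one. The median of the 11 was 0.10, and that of all 28 with no filter was -0.01, so the list as a whole lay near the median of all genes. Sycp3, a protein of the meiotic chromosome axis, read 8.42 on scramble, 5.50 on scramble + PRDM14, 6.43 on knockdown and 7.36 on knockdown + PRDM14. The knockdown difference was thus 1.86 with PRDM14 and -1.99 without it. Ddx4, the germ cell RNA helicase also called Vasa, read 7.14, 5.73, 7.27 and 6.99, a difference of 1.25. Meioc, a regulator of meiotic prophase, read 5.95, 4.97, 5.08 and 6.29, a difference of 1.32, or 0.89 with the array below the filter raised to it. Dmrt1, a transcription factor of the male germline, read 7.65, 6.27, 7.16 and 7.27, a difference of 1.00 at the very edge of the rule.

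All 4 called germline genes had their lowest signal on scramble + PRDM14. Dazl, a germ cell RNA-binding protein, read 6.58, 5.33, 6.07 and 5.44, low on both PRDM14 arrays, and differed by 0.11. Syce1 differed by -0.23 and Tuba3a by -0.29. Among 10 primordial germ cell genes above the filter, the median was 0.08, and Dppa3 was called higher and Ifitm3 lower. Over all genes above the filter the shares were 0.630% higher and 0.475% lower. Tfap2c, a transcription factor of germ cell specification, differed by 0.66. Of the X-linked Rhox homeobox cluster, 2 of 4 genes were above the filter: Rhox5 read 9.56, 9.88, 10.71 and 8.52, a difference of -1.36, and Rhox13 differed by -0.66. Rhox6 and Rhox9 were below the filter on both arrays compared.

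Of the 4 called germline genes, 3 had a promoter in the RefSeq table, those printed above. The motif TTCCCGC was found in 3 of the 3 and CACGTG in 2. Counted at any annotated start, the first was found for 8 of the 23 listed genes with a promoter and the second for 13. Of the 8337 genes above the filter with a promoter, 9.37% and 12.1% had them. Stag3 and Hormad1, which also hold both motifs, were below the filter. Of the 10 members above the filter with a promoter, 5 held TTCCCGC and 5 held CACGTG. Smc1b at -0.08 and Tuba3a at -0.29 held TTCCCGC and were not called. A match is a description of letters and not a bound site.

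**Figure D3:**
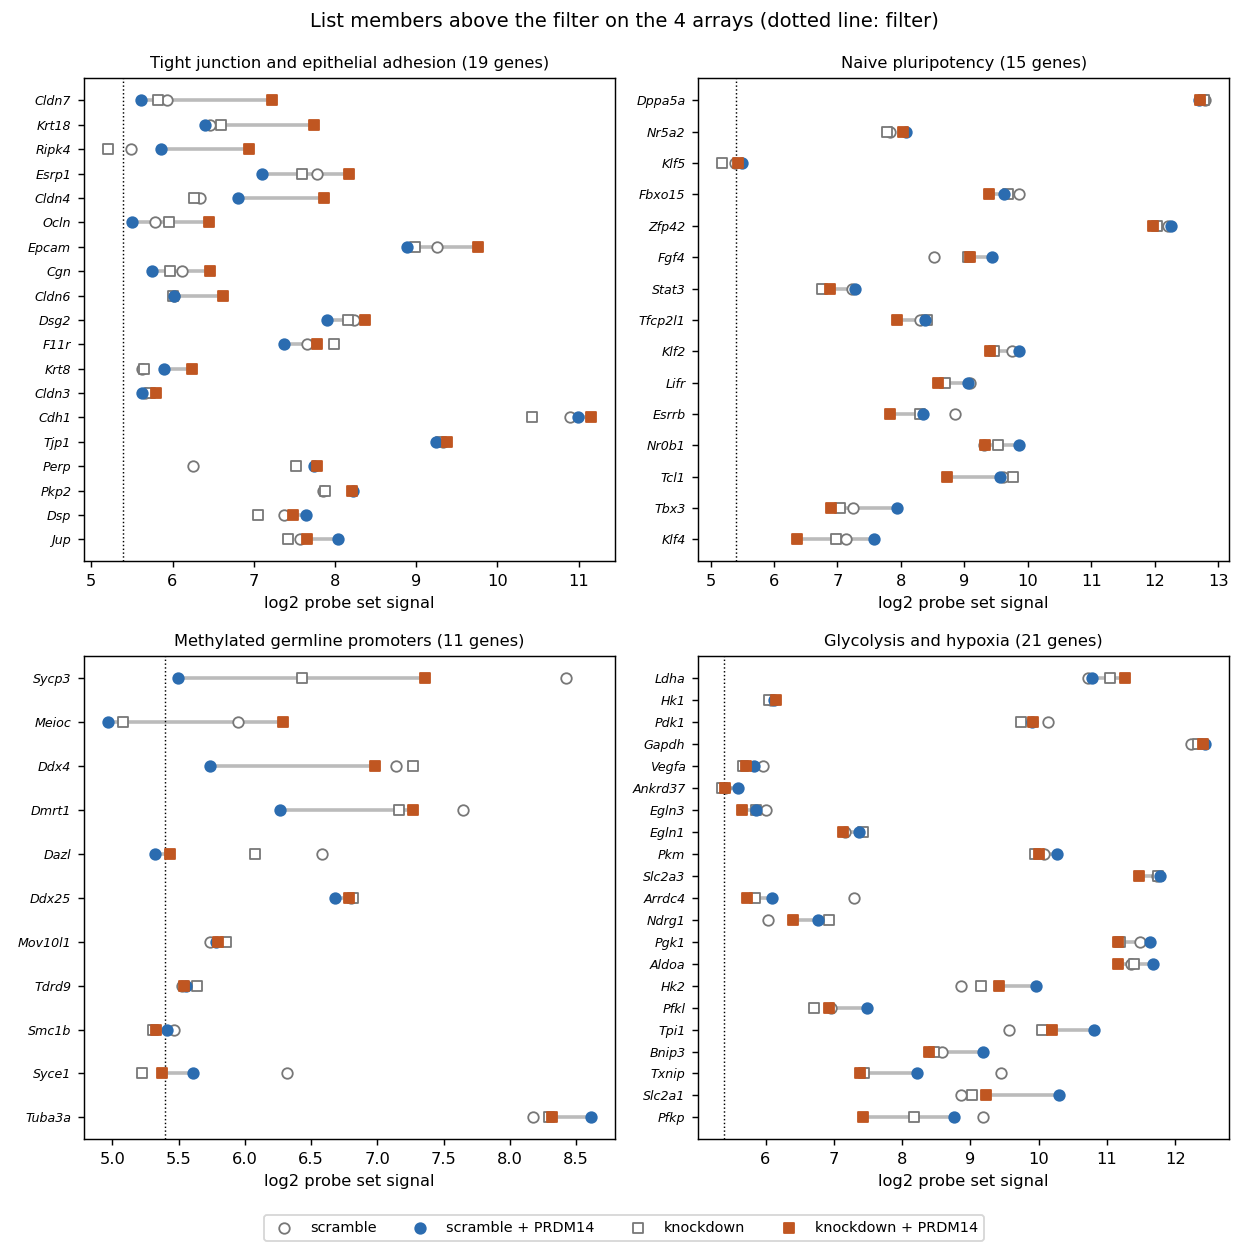
Log2 signals on the 4 arrays for the members above the filter of 4 gene lists, ordered by the difference between the PRDM14 arrays, which a grey bar joins; the dotted line is the filter. In the junction list the orange squares of knockdown + PRDM14 lie mostly to the right of all other arrays, and in the glycolysis list the blue circles of scramble + PRDM14 lie to the right for 11 of 21 genes.

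Glycolysis and hypoxia genes were mostly lower on the knockdown array, with a median of -0.36 over 21 of 22 members, 18 below 0 and 3 above. At least 2-fold lower were 2 and higher 0, against background shares of 0.475% and 0.630%. Pfkp, the platelet-type phosphofructokinase, read 9.19 on scramble, 8.76 on scramble + PRDM14, 8.17 on knockdown and 7.43 on knockdown + PRDM14, a difference of -1.33. Its second probe set, below the filter, gave -0.24, and their average of -0.79 falls short of 2-fold. Slc2a1, the glucose transporter GLUT1, read 8.86, 10.30, 9.03 and 9.23, a difference of -1.07, and its other probe set gave -0.97. Slc2a1 was bright on scramble + PRDM14 alone, while Pfkp was lower on both knockdown arrays than on both scramble arrays. Txnip, an inhibitor of glucose uptake, differed by -0.84, Bnip3, a mitophagy receptor induced in hypoxia, by -0.78 and Tpi1, triosephosphate isomerase, by -0.62. Ldha, lactate dehydrogenase A, was the highest of the list at 0.47. Without PRDM14 the list's median was -0.04.

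Of the DNA methylation machinery, 13 of 14 genes were above the filter and 0 were called, with 9 above 0 and a median of 0.06. Over all genes above the filter, 0.630% were called higher and 0.475% lower. Dnmt3b, a de novo methyltransferase, read 8.89 on scramble, 10.21 on scramble + PRDM14, 8.83 on knockdown and 10.61 on knockdown + PRDM14. Its knockdown difference was 0.40 with PRDM14, and 0.54 at a second probe set. Dnmt3l, the catalytically inactive cofactor of the de novo enzymes, differed by -0.79, Dnmt3a by 0.23, the maintenance enzyme Dnmt1 by 0.02 and its partner Uhrf1 by -0.23. Zbtb33, the methyl-CpG binding protein Kaiso, was the highest at 0.75. Genes listed for base excision repair and demethylation, which include Gadd45 and Apobec genes, had 5 of 17 above 0 and a median of -0.08, with 0 called. Lowest was Apobec3, a cytidine deaminase, at -0.92.

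Calls in the lists that follow stand beside background shares of 0.630% higher and 0.475% lower. Polycomb genes had 15 of 18 differences below 0 and a median of -0.12. The only one of the 18 that was called was Epop, a modulator of Polycomb repressive complex 2, which read 4.01, 6.42, 4.41 and 4.94 and was above the filter on scramble + PRDM14 alone. Kdm2b, which brings Polycomb repressive complex 1 to CpG islands, differed by -0.89. Basement membrane genes had 9 of 12 below 0 and a median of -0.24, with Nid1 called. In the FGF pathway, Dusp4, a phosphatase that dampens ERK, read 7.45, 5.30, 7.48 and 6.75, a difference of 1.45 and 1 of 14 called, and Sprouty genes went both ways, with Spry1 at 0.59 and Spry4 at -0.56. Phlda2, an imprinted growth suppressor of placenta, differed by 1.09 and was the only called gene of 15 imprinted ones. Genes listed for intermediate filaments and mesenchyme went both ways, with 7 of 11 above 0, 4 below and a median of 0.16. Called higher were 2, Krt18 and Lgals1, the latter galectin-1 at 1.41. The 1 called lower was Vim, the mesenchymal filament vimentin, at -1.09.

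Several lists lay near 0, and their calls stand beside the same background shares of 0.630% higher and 0.475% lower. Cell cycle genes had a median of 0.00 over 28 with 0 called, housekeeping genes 0.00 over 15 with 0 called and cytosolic ribosomal proteins 0.02 over 22 with Rpl39l called lower. Ccnd2, of the cell cycle list, lay just outside the rule at -0.9998. Its other probe sets above the filter gave -1.63, -1.22 and -0.63, and the average of all its probe sets was -0.80. The sign of the housekeeping median flips with median centring, at -0.00, and with loess, at -0.01. ATF4 amino acid response genes, whose median was -0.58 without PRDM14, had a median of 0.04 with it and 0 of 25 called.

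**Figure D4:**
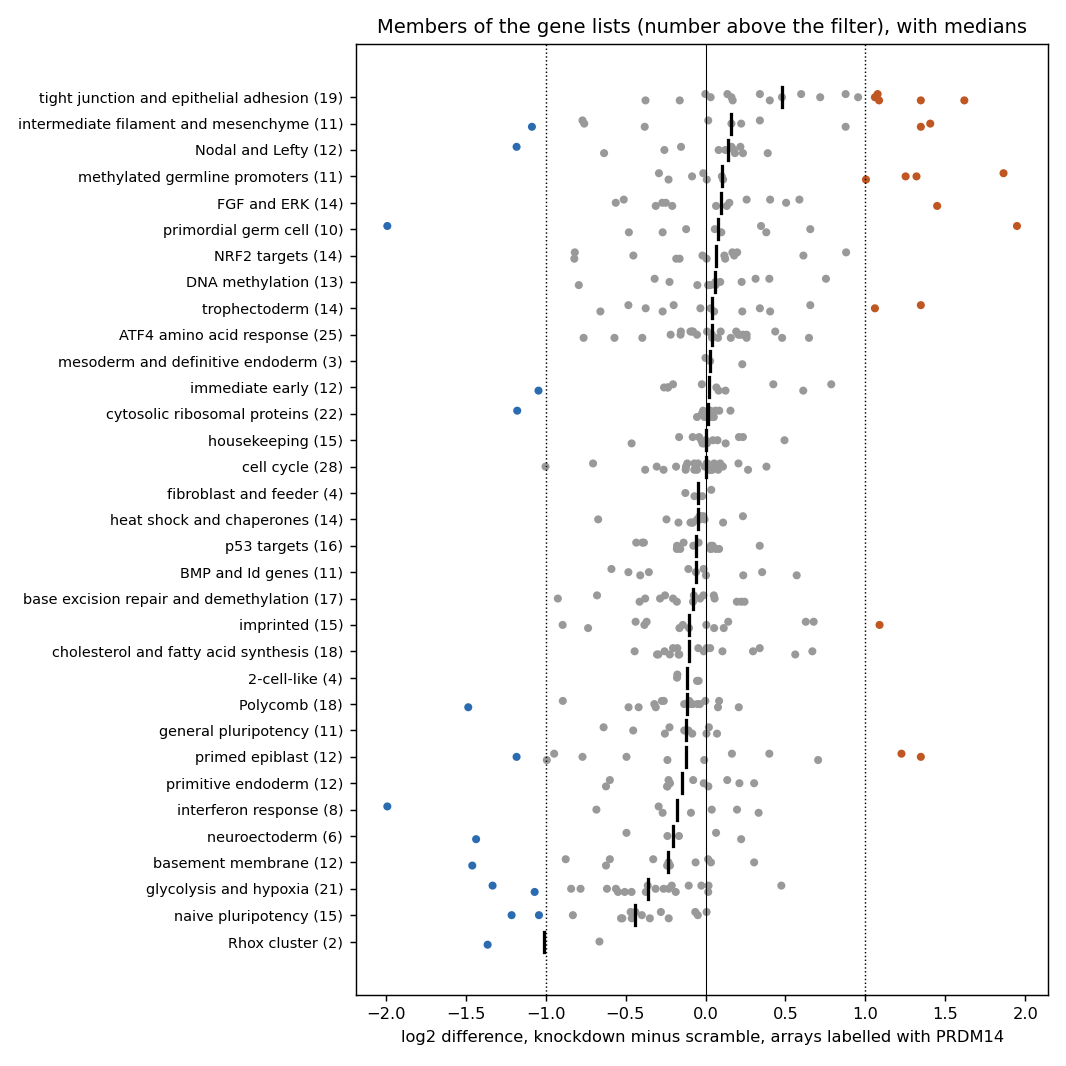
Each point is the log2 difference, knockdown minus scramble with PRDM14, of a list member above the filter, with their number in brackets; orange points are at least 2-fold higher and blue points at least 2-fold lower. The black bars are list medians, from -1.01 for the 2 Rhox genes to 0.48 for the 19 junction genes, and dotted lines mark 2-fold.

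The knockdown without PRDM14 is the other measurement of a knockdown difference, on arrays not used above. There 64 genes were at least 2-fold higher, 0.618% of 10351, and 46 lower, 0.444%. Over the 10154 genes above the filter in both comparisons, the differences had a Pearson r of 0.096 and a Spearman rho of 0.096, and 53.2% had the same sign. This correlation is across genes, which are not independent replicates, and each array adds its own deviations. Of the 65 genes higher with PRDM14, 45 had the same sign without it and 20 the opposite, with a median of 0.22. Of the 49 lower genes, 23 had the same sign and 26 the opposite, with a median of 0.07. Past 1.5-fold without PRDM14 were 15 of the 65 in the same direction and 2 in the opposite, and 11 and 9 of the 49, against background shares of 2.93% higher and 2.16% lower.

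Called in both comparisons were 4 higher genes, 6.15% of the 65 and 6.25% of the 64, and 8 lower genes, 16.3% of the 49 and 17.4% of the 46. These were 0.0394% and 0.0788% of the genes above the filter in both. The higher genes were Mex3b, with differences of 2.06 with and 1.86 without PRDM14, Galnt7 with 1.53 and 1.49, Rnf128, a ubiquitin ligase, with 1.12 and 1.81, and Klhl13, a ubiquitin ligase adaptor, with 1.09 and 1.20. Their scramble arrays were both dimmer than their knockdown arrays. The lower genes were Trh with -1.95 and -1.15, Manba with -1.55 and -1.15, Pfkp with -1.33 and -1.02, Lefty2, an inhibitor of Nodal, with -1.18 and -1.31, Rpl39l with -1.18 and -1.22, Slc25a16, a mitochondrial carrier, with -1.14 and -1.23, Cpeb4, a regulator of mRNA polyadenylation, with -1.05 and -1.20, and Egr1, an immediate early transcription factor, with -1.04 and -2.16. With averaged probe sets Pfkp, at -0.79, and Cpeb4, at -0.46 with PRDM14, were no longer called, and with low values raised Mex3b was not. Rpl39l read 9.33, 8.60, 8.11 and 7.42 on scramble, scramble + PRDM14, knockdown and knockdown + PRDM14, and both its knockdown arrays lay below both its scramble arrays.

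Another 9 genes, 0.0886% of those above the filter in both, were called in opposite directions. Sycp3 was higher with PRDM14 and lower without. The other 8 were lower with PRDM14 and higher without: Ifitm3, Calcoco2, P3h4, Rhox5, Upp1, Coch, Vim and Anxa2. Vim read 7.83 on scramble, 10.57 on scramble + PRDM14, 10.20 on knockdown and 9.48 on knockdown + PRDM14, with differences of -1.09 with PRDM14 and 2.37 without. Its scramble array stood alone as the dimmest. That array was also the dimmest for Ifitm3, P3h4, Upp1, Coch and Anxa2, and the brightest for Sycp3. For Calcoco2 and Rhox5 it was neither. The part of the scramble array in these differences was not tested.

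**Figure D5:**
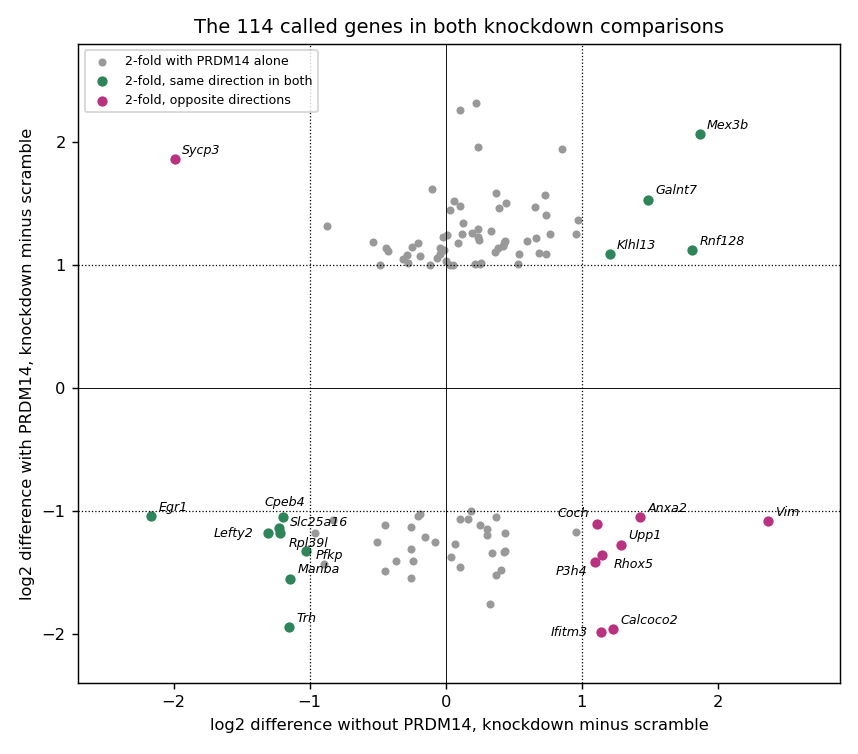
For the 114 genes called with PRDM14, the log2 knockdown difference with PRDM14 is plotted against that without it, from arrays that the first does not use; dotted lines mark 2-fold. The 12 genes past 2-fold in the same direction in both are green, the 9 in opposite directions magenta, and the remaining genes spread to both sides of 0 on the horizontal axis.

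An additive fit in limma over all 4 arrays, with the PRDM14 label as a term and 1 residual degree of freedom, tested the average knockdown effect. It called 0 of 10519 genes at an adjusted p of 0.05 (0% in either direction), and 604 had an unadjusted p under 0.05. The smallest adjusted p was 0.802. With 1 array per condition the fit gives no support to any single gene named here, Tet2 included.

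Promoters of the called genes were described from the RefSeq table, which held 53 of the 65 higher, 38 of the 49 lower and 8337 of the 10322 genes above the filter. Their 300 bases held a median of 22 CpGs in the higher genes, 17.5 in the lower and 22 in all. The ratio of observed to expected CpG was 0.778, 0.637 and 0.782, and it was under 0.4, a CpG-poor promoter, in 11.3%, 23.7% and 14.3%. Junction genes had a median of 17 CpGs and a ratio of 0.585 over 13 promoters. On the X chromosome lay 7 of the 53 higher genes, 13.2%, and 3 of the 38 lower, 7.89%, against 3.54% of all. The higher ones were Mageb16 at 1.57, Fgf13 at 1.37, Pls3 at 1.28, Rnf128 at 1.12, Hmgn5 at 1.10, Fam199x at 1.09 and Klhl13 at 1.09, and the lower ones Rhox5 at -1.36, Pcyt1b at -1.12 and Trap1a at -1.07. With averaged probe sets Fgf13 was at 0.58 and Fam199x at 0.79, under 2-fold. These shares were not tested.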

How the data were processed

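The series held 4 arrays, 1 per condition, placed in groups by their titles. Per the labels' protocols, total RNA was labelled with a 3′ expression kit. The authors deposited log2 probe set signals already on a common scale, with quartiles within 0.016 of each other. Their range, 2.78 to 13.2, is the basis for reading them as base 2. The submitters' processing notes list Affymetrix Expression Console; version, summary method, background correction and genome build are not given in the sources used. Any compression of low signals was therefore not assessed.

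Probe sets were named from the platform's annotation: 28898 had 1 gene and were used, 551 had several, 15588 had none and 104 were controls. The Entrez identifiers of 28689 probe sets were in RefSeq's gene table, and 0 symbols changed. The brightest probe set on average represented each gene. The filter was the median of named values, 5.40. A gene was called at 2-fold or more with 1 of the arrays compared at the filter. The additive fit used limma 3.58.1 in R 4.3.3 (lmFit, eBayes with trend, Benjamini-Hochberg). The script was checked on simulated data.

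The genes and the 34 gene lists were chosen with earlier results of these data known. Named were the targets, DNA methyltransferases, the 15 largest called differences per direction, up to 4 members per list with the largest differences and genes called alike in both knockdown comparisons. Other list members, and genes called in opposite directions, were named after their values were seen. Promoters were counted once per gene, with CpGs taken at the start with most of them. A motif was counted when any annotated start of the gene held it. Alternatives were other thresholds, filters, probe set rules and scalings.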

Additional observations from a re-analysis of the deposited data

Results flagged for a closer look

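The 9 genes called in opposite directions in the 2 knockdown comparisons are given here because knockdown and scramble differed by at least 2-fold in both, with opposite signs. The difference between the comparisons was not tested, and with 1 array per condition it cannot be. The scramble array was the brightest array for Sycp3 and the dimmest for Ifitm3, P3h4, Upp1, Coch, Vim and Anxa2, and neither for Calcoco2 and Rhox5. Sycp3 had a log2 difference of 1.86 with PRDM14 and -1.99 without. Differences with PRDM14 and without were -1.99 and 1.14 for Ifitm3, -1.96 and 1.23 for Calcoco2, and -1.42 and 1.10 for P3h4. They were -1.36 and 1.15 for Rhox5, -1.28 and 1.29 for Upp1, and -1.11 and 1.11 for Coch. Vim had -1.09 and 2.37, and Anxa2 had -1.05 and 1.43. The other probe sets of Vim gave -0.99 and 2.39, and -1.22 and 2.74.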

How the results depend on the processing

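With 1 array per condition no replicate could be left out and no replicate numbers pair the arrays, while the additive fit sets knockdown against scramble within each PRDM14 label. With a threshold of 1.5-fold, 247 genes were higher and 201 lower, and 43 were higher and 22 lower in both knockdown comparisons. With 3-fold, 8 were higher and 4 lower. When the probe sets of a gene were averaged, 39 were higher in place of 65, and 38 of the 65 were kept, and 40 were lower in place of 49, of which 36 were kept. Under the other filters, raised low values and the 3 scalings, the counts were 46 to 66 higher and 40 to 50 lower, and scalings kept 61 to 63 of the 65 and 49 of the 49. The additive fit called 0 genes in each of its settings. The median of target genes moved to -0.22 of the Rhox cluster to -0.19 and of neuroectoderm to -0.04 with no filter, and that of primed epiblast to -0.37 with averaged probe sets. Precision is limited by the number of arrays, and no background level per probe set was determined. Of the 65 higher genes 16, and of the 49 lower genes 6, had 1 compared array below the filter, where a fold may be understated.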

Other observations

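Probe sets with no single gene name also differed between the arrays with PRDM14. Of 16139 such probe sets 5329 were above the filter, of which 21 were past 2-fold in the higher and 24 in the lower direction, 0.844% together. They entered none of the gene results. Among array controls, the 3 DapX probe sets differed by -0.34 to -0.16 and the 3 18S ribosomal RNA probe sets by -0.27 to -0.09, and the other spiked controls by -0.21 to 0.05.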
